A study of Mus musculus with 37 samples.

Results

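Fully grown mouse oocytes with an intact germinal vesicle (GV) were compared with ovulated oocytes arrested at metaphase II (MII), each library holding the RNA of 1 oocyte. The comparison uses the 6 GV and 6 MII oocytes that the submitters place in batch A, which are 12 of the 37 oocytes in the series. They were chosen by stage and batch label, and no measured value entered the choice. The study asked how the maternal transcriptome changes while the oocyte matures. All 12 oocytes came from C57BL/6 females aged 6 to 8 weeks. GV oocytes were taken from ovaries after injection of pregnant mare serum gonadotropin. MII oocytes were taken from the ampulla of the oviduct after a later injection of human chorionic gonadotropin. Oocytes of either stage passed through hyaluronidase, lost the zona pellucida in acidic Tyrode's solution and were freed of the polar body before lysis. Which animal gave which oocyte is not given in the sources used here, so p-values measure the spread between these oocytes and not between animals.

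An oocyte stores maternal mRNA while it grows and stops transcription before it resumes meiosis. During maturation some stored mRNAs lose their poly(A) tails and are degraded, while others gain longer tails and are translated. Products of the second kind, among them cyclin B1 and Mos, drive the meiotic divisions and hold the egg at metaphase II until it is fertilized. Libraries were made with Smart-seq2, which primes reverse transcription with oligo-dT, so a change in tail length and a change in the amount of an mRNA cannot be told apart in any value given here.

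Under TMM, which describes the composition of the mRNA, 6.3% of all tested genes fell at MII. Among cytoplasmic ribosomal proteins 45 of 85 tested genes (52.9%) fell on this scale. For nuclear-encoded subunits of the respiratory chain and ATP synthase the count was 28 of 84 (33.3%). The zona pellucida genes Zp1, Zp2 and Zp3 fell as well. Of all tested genes 54.1% were kept in composition. The share was 96.6% for the anaphase-promoting complex and checkpoint, 94.4% for the m6A pathway, 83.3% for the cytostatic machinery and 66.7% for the nuclear pore. Among nuclear protein-coding genes in the highest of 4 equal bins of mean CPM it was 82.7%. The cytostatic share thus lay near that of genes of like level, and the nuclear pore share below it. Messages of the mitochondrial genome rose relative to the other mRNAs, but none passed both the test and the 2-fold bound when libraries were scaled by spike-ins. Few nuclear genes rose, and many of those calls were lost without MII oocyte 1.

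RSEM assigned between 7509874.5 and 12648628.6 expected counts to mouse genes in the GV oocytes (median 10014033.3). In the MII oocytes the range was 9930485.4 to 13988444.2 (median 10509159.4). The stages overlapped in depth, and an exact permutation test over the 924 assignments of the oocytes gave a two-sided p = 0.381. This was 1 of 7 measures per oocyte tested in this way, and its Benjamini-Hochberg adjusted p was 0.533. Amplified cDNA was sequenced without molecular identifiers, so standard errors and p-values do not describe independent molecules.

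Each oocyte also received ERCC spike-in RNA, the amount of which is not given in the sources used here. With ribosomal RNA genes set aside, a GV oocyte held 52.4 to 122 mouse counts per spike-in count (median 92.1) and an MII oocyte 50.4 to 62.4 (median 59.7). The MII oocytes lay close together, and GV oocyte 4 alone among the GV oocytes lay within their range. The ratio of the means was 0.635, with an exact permutation p = 0.0108 and an adjusted p of 0.0379. The stored polyadenylated RNA was thus measured on 2 scales. Spike-in counts themselves were 44663.3 to 128319.2 at GV and 120280.0 to 143061.5 at MII, a ratio of the means of 1.44, and GV oocyte 4 alone among the GV oocytes reached the MII range. Scaling by ERCC totals assumes that every oocyte received the same amount, which was not tested. TMM sets the typical gene to no change and describes the composition of the mRNA, while scaling by ERCC totals describes the level per spike-in.

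After ERCC sequences were left out, 13094 genes had at least 10 counts in at least 6 of the 12 oocytes and were tested with edgeR. Genes with a p under 0.05 after Benjamini-Hochberg adjustment and a change of more than 2-fold were called. A gene was counted as kept when the 95% interval of its log2 fold change (MII over GV) lay within ±1, that is, within a 2-fold change in either direction. Under TMM, 825 genes (6.3%) were lower at MII, 292 (2.23%) were higher and 7081 (54.1%) were kept. The remaining 4896 were neither called nor kept. With so few genes called, a small class without a call can lie near the share of all genes, so the absence of calls alone does not set such a class apart. Under ERCC totals, 3811 (29.1%) were lower, 140 (1.07%) were higher and 2396 (18.3%) were kept. The median log2 fold change moved from 0.01 under TMM to −0.72 under ERCC totals, and the median shift of a gene between the scales was −0.73. From the 5th to the 95th percentile of genes the shift ran from −0.81 to −0.65, and over all tested genes from −1.06 to −0.20. Lower genes made up 73.9% of the calls under TMM and 96.5% under ERCC totals, and higher genes 26.1% and 3.54%.

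All 825 genes that fell under TMM were also lower under ERCC totals, while 140 of the 292 that rose under TMM were higher there. Of the genes kept under TMM, 961 were called lower under ERCC totals, and 1618 were kept on both scales. The kept genes of a class are therefore kept in composition, and the number of its genes called under ERCC totals is given beside them.

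MII oocyte 1 stood apart from the other MII oocytes. It held at least 1 count for 18578 protein-coding genes against 14092 to 15548 in MII oocytes 2 to 6, and for 1124 of the 1473 annotated sensory receptor genes against 408 to 658. Without it, 12852 genes were tested under TMM, of which 737 (5.73%) were lower, 149 (1.16%) were higher and 6751 (52.5%) were kept, so that lower genes made up 83.2% of the calls. Under ERCC totals without it, 3719 (28.9%) were lower, 38 (0.296%) were higher and 2043 (15.9%) were kept. Of the lower genes under TMM, 692 (83.9%) were called again, and of the higher genes 136 (46.6%). Of the genes higher under TMM, which were called on values that include this oocyte, MII oocyte 1 was the highest of the 12 for 53.4%, and each of MII oocytes 2 to 6 for 2.4% to 14%. Leaving out GV oocyte 5 also reduced the higher calls, to 184 under TMM and 83 under ERCC totals.

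Counting with HTSeq gave 13545 tested genes, of which 685 (5.06%) were lower, 103 (0.76%) were higher and 6732 (49.7%) were kept. It called 64.2% of the lower and 20.2% of the higher genes of the RSEM table again. A core of 484 genes was lower under TMM, under ERCC totals, without MII oocyte 1 and on HTSeq counts. All 825 genes lower under TMM met the ERCC condition, which shifts every gene downward, so for lower genes it adds no check. In 361 of the 484 every MII oocyte lay below every GV oocyte, as in 739 of the 13094 tested genes. The 484 were called on these same values. The corresponding higher core held 6 genes, and in none of them were the stages separate. The same downward shift left 140 of the 292 higher genes called, so the sizes of the 2 cores cannot be compared.

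Translation of the stored messages needs ribosomes, and of the classes listed here the cytoplasmic ribosomal proteins had the largest share of genes that fell under TMM. Of 86 annotated genes 85 were tested, and 45 fell under TMM, none rose and 17 were kept, with a median log2 fold change of −1.05 against 0.01 for all tested genes. Under ERCC totals 77 were lower, and the median was −1.80. Without MII oocyte 1, 42 fell under TMM and 75 were lower under ERCC totals, and 42 of 84 fell on HTSeq counts. Summed over the class, the GV oocytes held 3486.0 to 5978.4 CPM (counts scaled to a common library size by TMM; median 4462.7) and the MII oocytes 1842.9 to 3221.7 (median 2408.2). Every MII oocyte lay below every GV oocyte. Per spike-in count the class stood at 0.401 to 0.908 in GV oocytes (median 0.566) and at 0.152 to 0.275 in MII oocytes (median 0.175), a ratio of the means of 0.309. Under TMM 26 of 51 Rpl genes, of the large subunit, and 19 of 32 Rps genes, of the small subunit, were lower. Ribosomal protein genes share reads with many processed pseudogenes, so single values of this class are uncertain.

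Rps15, a protein of the small subunit, ranged from 16.1 to 36.6 CPM (median 27.8) at GV and from 1.65 to 4.39 (median 3.33) at MII. The stages did not overlap, and its log2 fold change was −3.11 ± 0.28 (SE, n = 6 per stage) under TMM with an edgeR adjusted p of 4.96e-06, and −3.84 under ERCC totals. Rpsa, also of the small subunit, ranged from 40.3 to 69.5 CPM at GV and from 4.41 to 15.2 at MII without overlap, and fell by 2.85 on the log2 scale. Rpl26 of the large subunit ranged from 25.96 to 41.2 CPM at GV and from 6.87 to 11.3 at MII, again without overlap, and fell by 1.93 on the log2 scale. Not every member fell. Rplp0, the stalk protein and the member with the most counts, ranged from 137 to 326 CPM at GV and from 83.1 to 177 at MII with overlapping stages, and its log2 fold change of −0.57 did not pass the test (edgeR adjusted p of 0.0926). Rplp0 was called lower under ERCC totals, at −1.26.

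**Figure D1:**
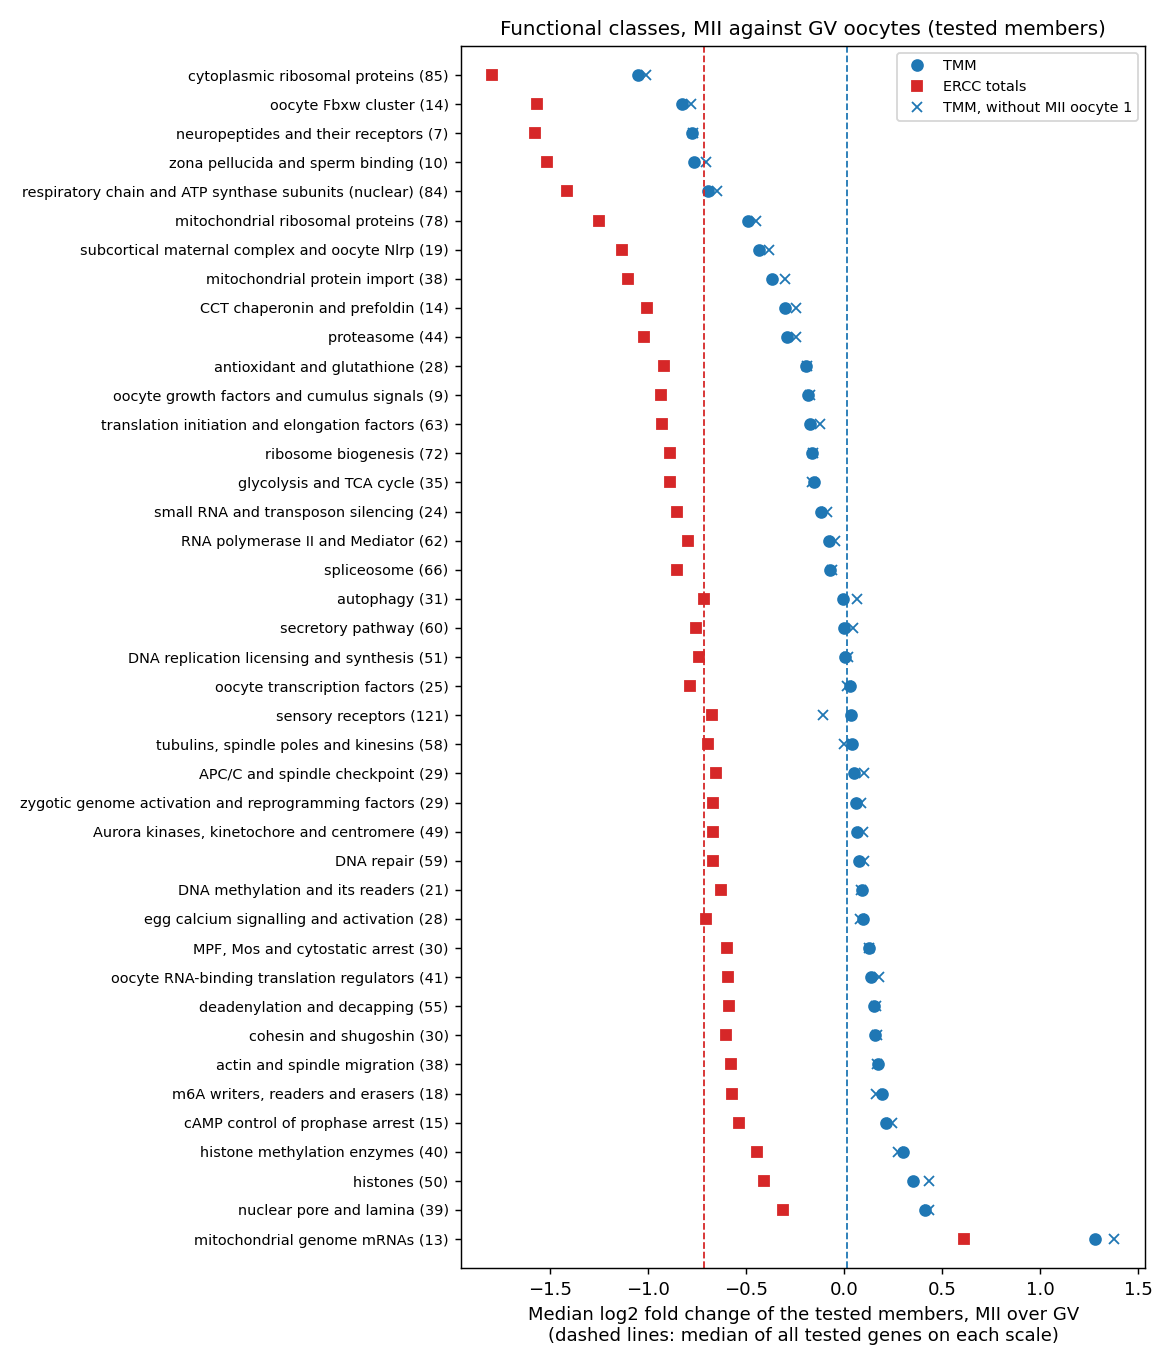
Median log2 fold change (x axis, MII over GV) of the tested members of 41 functional classes (y axis, number tested in brackets), with circles for TMM, crosses for TMM without MII oocyte 1 and squares for ERCC totals. Dashed lines mark the medians of all tested genes, 0.01 under TMM and −0.72 under ERCC totals; cytoplasmic ribosomal proteins lie lowest at −1.05 and −1.80, and mitochondrial genome mRNAs highest at 1.28 and 0.61.

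Among factors that make and use ribosomes, 76.4% of biogenesis genes and 73% of initiation and elongation factors were kept under TMM. Of all tested genes 54.1% were kept, and 75.4% and 82.7% in the upper 2 of 4 equal bins of mean CPM. The median member stood at 36.0 CPM in the biogenesis class, in the lower of these 2 bins, and at 65.2 among the factors. The first share thus lay near that of genes of like level and the second below it. Among 72 tested ribosome biogenesis genes, 2 fell under TMM (Emg1 and Tsr2) and 55 were kept, with a median of −0.17. Their ERCC median was −0.89, and 28 were lower on that scale, or 18 when GV oocyte 1 was left out. The 2 TMM calls became 1 when GV oocyte 4, 5 or 6 or MII oocyte 4 was left out. Ncl, the nucleolar protein nucleolin and the member with the most counts, was kept under TMM at a log2 fold change of 0.24. Of 63 tested initiation and elongation factors 5 fell under TMM, namely Eef1a1, Eif3k, Eif3c, Eif3m and Pabpc1, and 46 were kept, with a median of −0.18. Under ERCC totals 26 of them were lower. Eef1a1, which brings aminoacyl-tRNA to the ribosome, stood at 338 to 527 CPM in GV oocytes (median 399) and at 115 to 154 in MII oocytes (median 143). The stages of Eef1a1 were far apart, with a log2 fold change of −1.58 ± 0.13 (edgeR adjusted p of 3.65e-06) under TMM and −2.32 under ERCC totals. Paip1, which binds the poly(A)-binding protein, was kept under TMM at 0.25.

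Genes for the proteins of mitochondrial ribosomes come from the nuclear genome. Of 78 tested Mrpl and Mrps genes 20 fell under TMM and 40 were kept, with a median of −0.49, and 52 were lower under ERCC totals with a median of −1.25. The large subunit contributed 16 of 49 and the small subunit 4 of 29. Mrpl38 stood at 20.5 to 42.7 CPM in GV oocytes (median 32.3) and at 4.65 to 8.37 in MII oocytes (median 5.49). There was no overlap, and the log2 fold change was −2.36 ± 0.22 (edgeR adjusted p of 6.07e-06). Mrpl48, the member with the most counts, was kept on both scales at 0.38 under TMM.

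Oxidative phosphorylation draws subunits from both genomes of the cell, and the calls of the nuclear and the mitochondrial genes had opposite directions under TMM. Of 84 tested nuclear genes for respiratory chain and ATP synthase subunits, 28 fell under TMM, none rose and 26 were kept, with a median of −0.69. Under ERCC totals 67 were lower and the median was −1.42. On HTSeq counts 19 of 84 fell. The calls were spread over the complexes, with 11 of 37 subunits of complex I, 1 of 4 of complex II, 3 of 9 of complex III, 3 of 14 of complex IV and 8 of 17 of ATP synthase. Those of complex I were 7 on HTSeq counts and without MII oocyte 4 or MII oocyte 5. Their summed level was 3065.9 to 4798.2 CPM at GV (median 3785.9) and 2172.8 to 3440.8 at MII (median 2672.3), so the stages overlapped. Atp5h, a peripheral stalk subunit of ATP synthase, ranged from 58.3 to 102 CPM (median 80.4) at GV and from 16.9 to 29.96 (median 23.8) at MII. Its stages were separate, at a log2 fold change of −1.79 ± 0.18 (edgeR adjusted p of 1.06e-05). Atp5b, the catalytic beta subunit, was instead kept on both scales, with 143 to 222 CPM at GV, 222 to 296 at MII and a log2 fold change of 0.38 under TMM.

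Of the 13 mRNAs of the mitochondrial genome 11 rose under TMM and none fell, with a median of 1.28. Under ERCC totals 4 were higher at an adjusted p under 0.05 (mt-Nd2, mt-Nd4, mt-Nd5 and mt-Cytb), all by less than 2-fold, so that edgeR called none. At an unadjusted p under 0.05, 6 were higher on that scale and none was lower, and 6 were kept, with a median of 0.61 against −0.72 for all genes. Leaving out GV oocyte 1, GV oocyte 2 or MII oocyte 1 gave 1 higher call on that scale, and without MII oocyte 1 the TMM calls were 12. All 13 rose on HTSeq counts. Summed, they stood at 3772.6 to 6364.2 CPM in GV oocytes (median 4933.9) and at 7859.2 to 15739.4 in MII oocytes (median 11615.3), with every MII oocyte above every GV oocyte. As a share of counts outside ribosomal RNA they took 0.565% to 0.854% at GV (median 0.676%) and 1.06% to 2.06% at MII (median 1.57%). That share was higher in 6 of 6 MII oocytes, with a ratio of the means of 2.23, an exact permutation p of 0.00217, the smallest that 6 against 6 oocytes can give, and an adjusted p of 0.0152. Per count of the nuclear respiratory genes, an oocyte held 1.04 to 1.62 mitochondrial counts at GV (median 1.25) and 3.29 to 5.06 at MII (median 4.11). This ratio does not depend on the scaling, and its stages did not overlap. Per spike-in the mitochondrial mRNAs ranged from 0.448 to 0.807 at GV and from 0.659 to 1.04 at MII, which overlapped.

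mt-Cytb, cytochrome b of complex III, stood at 620 to 1492 CPM in GV oocytes (median 1039) and at 1630 to 3864 in MII oocytes (median 2842). The stages were separate, and the log2 fold change was 1.38 ± 0.22 (edgeR adjusted p of 0.000437) under TMM and 0.71 under ERCC totals (edgeR adjusted p of 0.00891), which is under 2-fold. mt-Nd2, a complex I subunit, ranged from 131 to 191 CPM at GV and from 344 to 588 at MII, with a log2 fold change of 1.44 ± 0.14 (edgeR adjusted p of 1.06e-05). mt-Nd2 too stayed under 2-fold under ERCC totals, at 0.69 (edgeR adjusted p of 0.020). Among 38 tested genes of mitochondrial protein import, 5 fell under TMM and 20 were kept, with a median of −0.37, and 19 were lower under ERCC totals. On HTSeq counts 3 fell. Timm22, of the inner membrane translocase, fell by 4.80 on the log2 scale on RSEM counts but was not called on HTSeq counts, at −0.90. Hspa9, the matrix chaperone that pulls proteins in, was kept under TMM at 0.27.

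**Figure D2:**
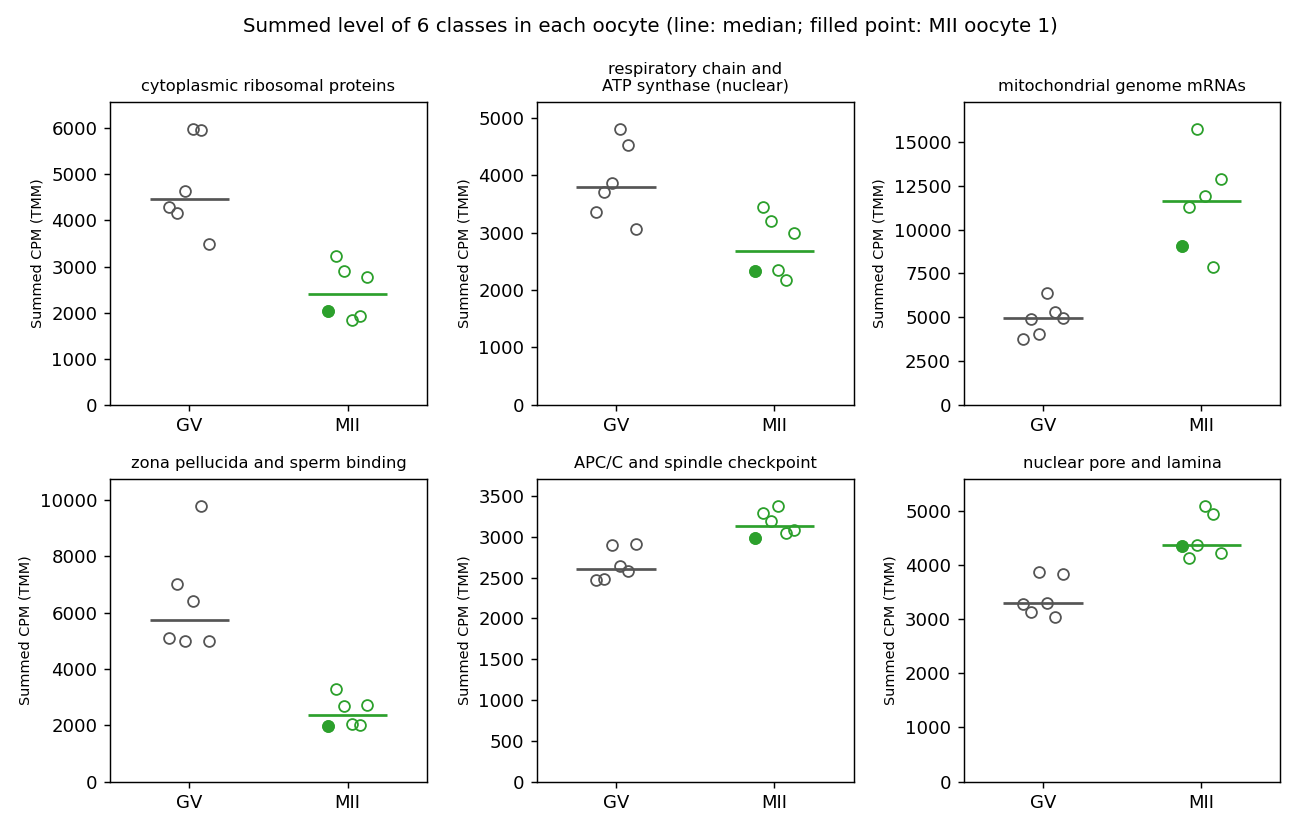
Summed level of 6 classes (y axis, TMM-scaled CPM) in each GV and MII oocyte (x axis), 1 point per oocyte, with a line at the median and MII oocyte 1 filled. Ribosomal protein and zona pellucida sums of all MII oocytes lie below all GV oocytes, nuclear respiratory sums overlap, and the sums of mitochondrial mRNAs, the anaphase-promoting complex and the nuclear pore lie above on this scale, though per spike-in the ratios of the last 2 turn to 0.712 and 0.794.

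Genes of protein turnover and folding held both lower and kept members under TMM. Of 44 tested proteasome genes 9 fell under TMM and 26 were kept, with a median of −0.29, and 23 were lower under ERCC totals. The catalytic 20S core contributed 5 of 15 and the regulatory 19S particle 2 of 19. The 19S calls were 1 without GV oocyte 4 or MII oocyte 1, 4 or 5, 3 without GV oocyte 2, 3 or 6 or MII oocyte 2 or 3, and 4 without GV oocyte 1. Psma6, an alpha subunit of the core, stood at 55.5 to 88.9 CPM in GV oocytes (median 63.7) and at 12.2 to 24.9 in MII oocytes (median 16.01). It did not overlap, at a log2 fold change of −2.04 ± 0.19 (edgeR adjusted p of 7.08e-06). Psmb7, a beta subunit, ranged from 84.3 to 126 CPM at GV and from 23.9 to 41.7 at MII, and fell by 1.60 on the log2 scale. Psme4, the activator PA200, was kept under TMM at 0.66. In the chaperonin and prefoldin class 2 of 14 fell under TMM and 10 were kept, with Cct5 kept at −0.37 under TMM and Pfdn1 lower at −1.12, and 7 were lower under ERCC totals.

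The zona pellucida is the glycoprotein coat of the oocyte. Of 10 tested zona pellucida and sperm-binding genes 3 fell under TMM, and these were Zp1, Zp2 and Zp3, the structural proteins of the coat. Under ERCC totals 6 were lower. Zp3 stood at 1644 to 3522 CPM in GV oocytes (median 2198) and at 341 to 733 in MII oocytes (median 496). It did not overlap, and its log2 fold change was −2.21 ± 0.22 (edgeR adjusted p of 1.06e-05) under TMM and −2.95 under ERCC totals. Zp2 fell by 2.14 and Zp1 fell by 1.39 on the log2 scale. The summed class ranged from 4983.0 to 9771.9 CPM at GV (median 5752.6) and from 1987.0 to 3288.9 at MII (median 2360.6), without overlap. Of 9 tested growth factors and cumulus signals none was called under TMM by edgeR or DESeq2 (2 lower and 2 higher at an unadjusted p under 0.05) and 8 were kept. Among 9 genes 0 calls lie near the 6.3% lower and 2.23% higher of all tested genes. Under ERCC totals 3 of the 9 (33.3%, against 29.1% of all tested genes) were lower, or 6 without GV oocyte 4. Gdf9, which the oocyte secretes to its cumulus cells, ranged from 2138 to 3748 CPM at GV and from 2111 to 2776 at MII with overlap, and was kept at −0.19. Of 19 genes of the subcortical maternal complex and the oocyte Nlrp family, which embryos need for their first divisions, 3 fell under TMM (Khdc3, Nlrp2 and Ooep), 13 were kept and the median was −0.44. Under ERCC totals 10 of them were lower. On HTSeq counts Nlrp2 was the 1 TMM call, with Khdc3 at −0.79 against −1.15 on RSEM counts and Ooep just short of 2-fold. Ooep also lost its call without MII oocyte 1, at −0.97. Zbed3, the member with the most counts, ranged from 2666 to 5979 CPM at GV and from 4113 to 8580 at MII with overlap, and was kept on both scales, at 0.51 under TMM and −0.20 under ERCC totals.

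Genes of meiotic arrest and its release were mostly kept in composition, at 96.6% of the anaphase-promoting complex and checkpoint class, 83.3% of the cytostatic class and 73.3% of the cAMP class, against 54.1% of all tested genes. The share kept depended on level. It was 75.4% and 82.7% in the upper 2 of 4 equal bins of mean CPM (16.6 to 47.9 and 47.9 to 6087 CPM, nuclear protein-coding genes), and the median member stood at 61.7 CPM in the first class, 98.9 in the cytostatic and 42.7 in the cAMP class, so the shares of the last 2 lay near those of genes of like level. Of 29 genes of the anaphase-promoting complex and the spindle checkpoint, which time the loss of cyclin B and securin, none was called under TMM by edgeR or DESeq2 and 28 were kept, with a median of 0.05. Of all tested genes 6.3% were called lower and 2.23% higher under TMM. Among the 29 genes 4 were lower and 4 higher at an unadjusted p under 0.05. Under ERCC totals 5 were lower, with a median of −0.65, or 8 when GV oocyte 2 or GV oocyte 4 was left out. Summed, the class ranged from 2472.2 to 2909.8 CPM at GV (median 2608.2) and from 2986.8 to 3372.4 at MII (median 3135.2), so every MII oocyte lay above every GV oocyte under TMM, while the ratio of the means turned to 0.712 per spike-in. Bub1b, the checkpoint kinase BubR1, stood at 619 to 1007 CPM in GV oocytes (median 761) and at 1077 to 1444 in MII oocytes (median 1283). Its stages were separate, yet the log2 fold change of 0.67 ± 0.14 (edgeR adjusted p of 0.004) stayed under 2-fold and Bub1b was kept on both scales.

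Of 30 tested genes of maturation-promoting factor, the Mos pathway and cytostatic arrest, 1 fell under TMM and 25 were kept, with a median of 0.13. Under ERCC totals 5 were lower, and the median was −0.60. The TMM call was Wee1, a kinase that inhibits Cdk1, at −1.19 ± 0.30 (edgeR adjusted p of 0.0122). Without GV oocyte 5 the Wee1 call was lost, at −0.84, and without GV oocyte 1 or MII oocyte 2 the class had 2 calls. Ccnb1, cyclin B1, stood at 616 to 1253 CPM in GV oocytes (median 836) and at 896 to 1970 in MII oocytes (median 1419). The ranges overlapped, and its log2 fold change was 0.61 ± 0.21 (edgeR adjusted p of 0.0514) under TMM and −0.10 under ERCC totals, where Ccnb1 was kept. Mos, the kinase upstream of MAP kinase, was kept under TMM at 0.20. Cdk1, the partner of cyclin B1, stood at −0.85 under TMM without a call and was lower under ERCC totals at −1.59. The cAMP pathway, which holds the GV oocyte in prophase, had no TMM call by edgeR or DESeq2 among 15 tested genes (1 lower and 2 higher at an unadjusted p under 0.05) and 11 kept, and its most counted member Rgs2 was kept at 0.19. Among 15 genes 0 TMM calls lie near the 6.3% lower and 2.23% higher of all tested genes. Under ERCC totals 1 cAMP gene was lower, or 3 without GV oocyte 4 and 2 without MII oocyte 1 or MII oocyte 5.

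Among chromosome segregation genes the share kept under TMM was 71.4% for the Aurora and kinetochore class and 83.3% for cohesin. It was 72.4% for tubulins and kinesins and 78.9% for actin and spindle migration. Of all tested genes 54.1% were kept, and 75.4% and 82.7% in the upper 2 of 4 equal bins of mean CPM. With class medians of 40.56 to 57.35 CPM, these shares lay near or below those of genes of like level. Of 49 tested genes of Aurora kinases, kinetochore and centromere, 3 (6.12%) fell under TMM, namely Cenpt, Cenpq and Cenpk, near the 6.3% of all tested genes. In this class 35 were kept, with a median of 0.06, and 2 fell without MII oocyte 1 and on HTSeq counts. Under ERCC totals 16 were lower. Cenpt fell by 2.48 on the log2 scale, and Cenpf, the member with the most counts, was kept at 0.24. No gene of cohesin, shugoshin and their partners was called under TMM by edgeR or DESeq2, and 25 of 30 were kept, with a median of 0.15. At an unadjusted p under 0.05, 1 was lower and 10 were higher. On the ERCC scale 3 of these were lower, or 5 without MII oocyte 2. Pttg1, the securin that guards cohesin, was kept under TMM at 0.59. Of 58 tested tubulin, spindle pole and kinesin genes 7 fell under TMM and 42 were kept, with a median of 0.04, and 17 were lower under ERCC totals. The tubulins carried 6 of the 7 calls, among 18 tested, and kinesins 1 among 28. The kinesin call, Kif9 at −1.01, was lost without GV oocyte 4 or 5 or MII oocyte 1, 2, 4 or 5, and on HTSeq counts, at −0.83. Tubb5 fell by 1.26 on the log2 scale, while Tubb4b, the tubulin with the most counts, was kept under TMM at −0.43 and called lower under ERCC totals, at −1.13. Of 38 genes of actin and spindle migration none was called under TMM by edgeR or DESeq2 (4 lower and 11 higher at an unadjusted p under 0.05) and 30 were kept, with a median of 0.17, while 8 were lower under ERCC totals. On HTSeq counts 1 rose. Leaving out GV oocyte 3 or MII oocyte 2 gave 2 lower calls in this class, and leaving out GV oocyte 1 or 6 or MII oocyte 3 or 4 gave 1. Cfl1, the actin-severing cofilin, stood at −0.64 under TMM without a call.

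Among regulators of the stored mRNAs themselves lower calls were about as frequent as elsewhere in 2 classes, with 5.45% of the deadenylation and decapping genes and 7.32% of the RNA-binding regulators lower under TMM, against 6.3% of all tested genes. Of 55 tested genes of deadenylation and decapping, 3 fell under TMM and 34 were kept, with a median of 0.15, and 11 were lower under ERCC totals. Btg4, the adaptor that brings the CCR4-NOT deadenylase to maternal mRNAs, ranged from 659 to 987 CPM at GV (median 706) and from 687 to 943 at MII (median 816). These ranges overlapped almost fully, and Btg4 was kept under TMM at 0.11. Tut7, a terminal uridylyltransferase, fell by 1.44 on the log2 scale on RSEM counts but stood at 0.16 on HTSeq counts, so its direction depends on the counting. Of 41 tested RNA-binding regulators of translation 3 fell and 1 rose under TMM and 26 were kept, with a median of 0.14, and 12 were lower under ERCC totals. The lower calls were 5 without GV oocyte 5. Ybx3, a cold-shock domain protein, fell by 1.68 on the log2 scale, and Ybx2, its germ-cell relative that packages stored mRNA, fell by 1.26. Cpeb1, which binds the cytoplasmic polyadenylation element, stood at 375 to 579 CPM in GV oocytes and at 201 to 264 in MII oocytes. The stages of Cpeb1 did not overlap, and its log2 fold change was −0.96 ± 0.13 under TMM, just short of the 2-fold bound, and −1.70 under ERCC totals, where Cpeb1 was called lower. Zar1, a binder of stored mRNAs, varied widely within each stage, from 423 to 1283 CPM at GV and from 502 to 1493 at MII, and was kept under TMM at 0.28. Sympk, a scaffold of the polyadenylation machinery, was the 1 higher call at 1.02, and MII oocyte 1 held 76.0 CPM of it. Sympk lost its call without MII oocyte 1, at 0.60, and also without GV oocyte 3, 5 or 6 or MII oocyte 5. Of the 18 writers, readers and erasers of m6A none was called under TMM by edgeR or DESeq2 (0 lower and 5 higher at an unadjusted p under 0.05) and 17 were kept, with a median of 0.19. Among 18 genes 0 TMM calls lie near the 6.3% lower and 2.23% higher of all tested genes. The ERCC scale called 2 of the 18 (11.1%, against 29.1% of all tested genes) lower, and 0 when GV oocyte 1 was left out. Ythdc1, a nuclear reader and the member with the most counts, was kept on both scales, at 0.41 under TMM.

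Chromatin and transcription genes ranged from kept to mixed. Of 50 tested histone and histone-handling genes 3 fell (Npm2, H2afx and H2afv), 7 rose and 17 were kept under TMM, with a median of 0.35. On HTSeq counts 3 rose. Under ERCC totals 7 were lower and 2 higher, with a median of −0.41. The 2 became 1 when GV oocyte 6, MII oocyte 2 or MII oocyte 6 was left out. Hist2h2aa1, a replication-type H2A, stood at 37.1 to 128 CPM in GV oocytes (median 58.4) and at 116 to 386 in MII oocytes (median 259). The stages overlapped slightly, and its log2 fold change was 1.90 under TMM (edgeR adjusted p of 0.000712) and 1.21 under ERCC totals. Replication-type histone mRNAs end without a poly(A) tail in dividing cells, and near-identical copies share reads, so these values are uncertain. Hist1h1a, a linker histone, rose by 1.15 on the log2 scale and Hist4h4, a core histone, by 1.54, on HTSeq counts as well, but neither was called under ERCC totals. H1foo, the linker histone of the oocyte, was kept under TMM at 0.28, and Npm2, the chaperone that remodels sperm chromatin, fell by 1.24 on the log2 scale.

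Nuclear pore and lamina genes had the highest median of the nuclear classes, 0.41 under TMM and −0.32 under ERCC totals, with no TMM call by edgeR or DESeq2 and 26 of 39 kept. Among all tested genes 6.3% were called lower and 2.23% higher under TMM. Of the 39 genes 6 were lower and 18 higher at an unadjusted p under 0.05 on that scale. Their sum ranged from 3042.1 to 3875.2 CPM at GV (median 3289.7) and from 4130.8 to 5079.9 at MII (median 4357.9). All MII oocytes lay above all GV oocytes under TMM, with Syne2, the member with the most counts, at 0.58 without a call, but the ratio of the means was 0.794 per spike-in. On the ERCC scale 7 of the 39 (17.9%) were lower and 22 were kept, or 56.4% against 18.3% of all tested genes. The median member stood at 84.4 CPM, in the highest of the 4 bins of mean CPM. In that bin 19.5% were lower under ERCC totals, near the share of the class. A kept share of genes of like level was not taken on this scale. Histone methylation enzymes had no TMM call by edgeR or DESeq2 among 40 tested (1 lower and 11 higher at an unadjusted p under 0.05) and 26 kept, with a median of 0.30, and Kmt2c was kept at 0.43. Under ERCC totals 5 of them were lower, or 3 without GV oocyte 1, MII oocyte 3 or MII oocyte 6 and 2 without GV oocyte 5. Of 21 tested DNA methylation genes none was called under TMM by edgeR or DESeq2 (4 lower and 5 higher at an unadjusted p under 0.05) and 10 were kept, while 8 were lower under ERCC totals. Dnmt1, the maintenance methyltransferase, stood at 861 to 1282 CPM in GV oocytes (median 1144) and at 415 to 681 in MII oocytes (median 644). These did not overlap, with a log2 fold change of −0.89 ± 0.16 under TMM (edgeR adjusted p of 0.00103), which is under 2-fold, and −1.64 under ERCC totals, where Dnmt1 was called lower.

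Of 62 genes of RNA polymerase II and Mediator 4 (6.45%) fell under TMM and 43 were kept, and 21 (33.9%) were lower under ERCC totals. Those shares, like those of the replication and repair genes below, lie near the 6.3% and 29.1% of all tested genes. In the polymerase and Mediator class Polr2i fell by 2.02 on the log2 scale. Polr2d, the member with the most counts, was kept on both scales, at 0.30 under TMM. Of 25 tested oocyte transcription factors 2 (8%) fell and 19 were kept under TMM, and 6 (24%) were lower under ERCC totals. The 2 TMM calls were Figla, which switches on the zona genes, at −1.16, and Cphx2, at −6.23. Cphx2 held 0.693 to 5.29 CPM in GV oocytes 1, 3 and 6 and 118 to 269 CPM in GV oocytes 2, 4 and 5, so its level in MII oocytes, 0.431 to 2.43 CPM, overlapped with the first set. The class had 1 call when GV oocyte 2 or GV oocyte 5 was left out and on HTSeq counts. Obox2, its most counted member, was kept under TMM at 0.08. Zygotic genome activation factors had no TMM call by edgeR or DESeq2 among 29 tested (6 lower and 8 higher at an unadjusted p under 0.05). Of these factors 21 were kept under TMM, with Trim24 at −0.14, and 9 (31%) were lower under ERCC totals. Of 51 replication genes 4 (7.84%) fell and 40 were kept under TMM, and 18 (35.3%) were lower under ERCC totals. Tyms, which makes thymidylate, was lower at −1.49 under TMM, and Pole4, the most counted, was kept on both scales at 0.39 under TMM. Of 59 tested DNA repair genes 3 (5.08%) fell and 41 were kept under TMM, and 18 (30.5%) were lower under ERCC totals. Xrcc5, the Ku80 protein of end joining, was lower at −1.22 under TMM. Chek1, the checkpoint kinase with the most counts of the class, was kept on both scales at 0.39 under TMM. The TMM calls for repair were 5 without GV oocyte 6.

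The counts of other classes of the cell's housekeeping are read against 6.3% lower under TMM and 29.1% under ERCC totals among all tested genes. In the spliceosome class 5 of 66 genes (7.58%) fell under TMM and 47 were kept, with Snrpc of the U1 particle lower at −1.64 and Sf3b1 kept at 0.63. Under ERCC totals 23 of them (34.8%) were lower and 13 were kept. Of 35 tested glycolysis and TCA cycle genes 3 (8.57%) fell and 27 were kept under TMM, and 12 (34.3%) were lower under ERCC totals, shares that like those of the spliceosome lie near those of all genes. Ldhb, a lactate dehydrogenase, was kept at −0.13, and Mdh2, the mitochondrial malate dehydrogenase, fell by 1.11 on the log2 scale but lost its call without GV oocyte 4, at −0.99. Of 28 tested antioxidant genes 4 fell and 15 were kept under TMM, with Prdx1 kept at 0.38 and Gstt2 lower at −1.95, and 13 were lower under ERCC totals. Of 60 tested secretory pathway genes 7 fell and 41 were kept under TMM, with Copz1 of the COPI coat lower at −1.63 and Stt3b, which transfers glycans to proteins, kept at 0.59, and 20 were lower under ERCC totals. Of 31 tested autophagy genes none was called under TMM by edgeR or DESeq2 (5 lower and 5 higher at an unadjusted p under 0.05) and 23 were kept, and 1 was lower when GV oocyte 1 or 2 or MII oocyte 3, 5 or 6 was left out. On the ERCC scale 9 autophagy genes were lower. Atg5, needed to build autophagosomes, was kept at −0.57 under TMM and was lower under ERCC totals at −1.31. Of 24 tested genes of small RNA and transposon silencing none was called under TMM by edgeR and 1 was lower by DESeq2 (8 lower and 2 higher at an unadjusted p under 0.05), 14 were kept, and 2 were lower when GV oocyte 3, GV oocyte 6 or MII oocyte 6 was left out. The ERCC scale called 9 of the 24 lower. Dicer1, which cleaves small RNA precursors, was kept at 0.29. Of 28 tested genes of egg calcium signalling and activation 2 (7.14%, Plcb1 and Calm2) fell and 20 were kept under TMM, and 7 (25%) were lower under ERCC totals, again near the shares of all genes. Wee2, the oocyte kinase that must act for the egg to leave metaphase II, ranged from 395 to 557 CPM at GV and from 469 to 752 at MII and was kept on both scales, at 0.43 under TMM.

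The oocyte Fbxw cluster, a family of F-box genes expressed in oocytes, had a negative log2 fold change for each of its 14 genes under TMM. Of these 3 fell under TMM (Fbxw21, Fbxw13 and Fbxw15), with a median of −0.83, and 11 were lower under ERCC totals, with a median of −1.57. The TMM calls were 6 when GV oocyte 1, GV oocyte 6, MII oocyte 2 or MII oocyte 3 was left out and 5 without GV oocyte 3. Fbxw21 stood at 330 to 612 CPM in GV oocytes (median 390) and at 45.5 to 72.6 in MII oocytes (median 60.2). It had the smallest adjusted p of the tested genes that met every condition for a named lower gene, at a log2 fold change of −2.84 ± 0.18 (edgeR adjusted p of 3.37e-07). Fbxw24, the member with the most counts, stood at −0.76 under TMM without a call and at −1.51 under ERCC totals with one. Members of this family resemble each other, so their reads can be shared. Tmsb10, an actin-binding thymosin outside the classes, ranged from 284 to 511 CPM at GV (median 344) and from 72.7 to 121 at MII (median 95.2). It did not overlap, at a log2 fold change of −1.95 ± 0.18 (edgeR adjusted p of 5.8e-06).

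Most higher calls of sensory receptor genes were lost without MII oocyte 1. Of 1473 annotated genes 121 were tested, and 25 rose, 5 (4.13%) fell and 31 (25.6%) were kept under TMM. Among all tested genes 2.23% rose, 6.3% fell and 54.1% were kept. Without MII oocyte 1, 6 of 110 receptor genes rose, against 1.16% of all tested genes. On HTSeq counts none of 43 receptor genes rose, against 0.76% of all tested genes. The higher calls of receptor genes were 14 without GV oocyte 5, 15 without GV oocyte 2 and 16 without GV oocyte 3. Under ERCC totals 26 receptor genes (21.5%) were lower, or 17 without GV oocyte 1, against 29.1% of all tested genes. On that scale 16 receptor genes were higher, against 1.07% of all tested genes. The 16 became 1 without MII oocyte 1, 10 without GV oocyte 2, 9 without GV oocyte 4 and 7 without GV oocyte 5. Vmn2r66, a vomeronasal receptor, rose by 1.66 on the log2 scale under TMM and was not called under ERCC totals, at 0.94. Olfr620 fell by 2.10 on the log2 scale, while Olfr624 stood at −0.37 under TMM without a call and was lower under ERCC totals, at −1.10. Of 76 neuropeptide and receptor genes 7 were tested, and Tac2, Npffr2 and Nmu fell under TMM, while 5 of the 7 were lower under ERCC totals. Gnrh1, the most counted of them, stood at −0.52 under TMM without a call and was lower under ERCC totals, at −1.28.

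Genes that rose in several fits were few. The 6 genes higher under TMM, ERCC totals, without MII oocyte 1 and on HTSeq counts were Gm21738, Gm10800, Gm26870, Gm10801, Gm10717 and Map3k21, a kinase of the MAP kinase cascade. Gm21738 held 0.308 to 4.30 CPM at GV and 4.00 to 153 at MII, so the stages overlapped and the MII oocytes spread widely. When ERCC scaling was not required, 49 genes were higher in the other 3 fits, a set formed after the values were seen. It held 40 protein-coding genes, 11 of them mitochondrial, and in 18 of the 49 every MII oocyte lay above every GV oocyte, as in 530 of the 13094 tested genes. Fastkd1, a mitochondrial RNA-binding protein, stood at 16.2 to 24.4 CPM in GV oocytes (median 18.4) and at 36.7 to 44.0 in MII oocytes (median 40.4). The stages of Fastkd1 were separate, with a log2 fold change of 1.02 ± 0.15 under TMM (edgeR adjusted p of 0.000183) and 0.30 under ERCC totals, where it was kept. Nfkb1, a subunit of the transcription factor NF-kB, rose by 1.43 on the log2 scale under TMM, and Rn7s2, a 7SL RNA of the signal recognition particle, by 1.54. Neither was called under ERCC totals.

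Outside protein-coding genes the balance of the calls depended on the oocytes, the counting and the scaling. Of all tested genes 6.3% fell and 2.23% rose under TMM, and 29.1% were lower and 1.07% higher under ERCC totals. Without MII oocyte 1 the TMM shares were 5.73% and 1.16%, and on HTSeq counts 5.06% and 0.76%. Of 604 tested lincRNA genes 62 (10.3%) fell and 21 rose under TMM, with a median of −0.27. Without MII oocyte 1, 56 of 588 lincRNA genes fell and 10 rose. On HTSeq counts 60 of 653 fell and 1 rose, and under ERCC totals 252 were lower and 13 higher. Of 272 antisense genes 20 (7.35%) fell, near the share of all tested genes, and 20 rose under TMM. Without MII oocyte 1, 21 of 260 antisense genes fell and 11 rose. On HTSeq counts 17 of 240 fell and 2 rose, and under ERCC totals 108 were lower and 10 higher. Of 234 processed pseudogenes 27 (11.5%) fell and 35 rose under TMM, and 75 (32.1%) were lower and 28 higher under ERCC totals. Without MII oocyte 1, 25 of 217 fell and 4 rose, and on HTSeq counts 51 of 442 fell and 2 rose. Genes of the TEC type, loci with evidence of transcription only, rose more often than they fell under TMM. Of 227 TEC genes 11 (4.85%) were lower, near the share of all tested genes, and 32 were higher. Without MII oocyte 1, 12 of 209 TEC genes fell and 6 rose. On HTSeq counts 4 of 97 fell and 2 rose, and under ERCC totals 50 were lower and 20 higher. Whether the counting used strand is not stated, so antisense and overlapping genes are uncertain.

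At the transcript level 22950 transcripts were tested in the same way. Under TMM 940 (4.1%) were lower and 306 (1.33%) higher, and under ERCC totals 4218 (18.4%) were lower and 100 (0.436%) higher. Cytoplasmic ribosomal protein transcripts again fell widely, with 75 of 189 lower under TMM, none higher and a median of −1.10, and 122 lower under ERCC totals. Of 139 nuclear respiratory transcripts 32 fell and 4 rose under TMM, and 83 were lower and 3 higher under ERCC totals. Of 148 mitochondrial ribosomal protein transcripts 22 fell and 1 rose under TMM, and 74 were lower under ERCC totals. Of 69 transcripts of the anaphase-promoting complex and checkpoint 4 fell and 1 rose under TMM, and 13 were lower under ERCC totals. Transcripts annotated as retained introns were called about as often in either direction under TMM, with 3.28% lower and 2.75% higher of 1708, while protein-coding transcripts were lower in 4.05% and higher in 1.04% of 16799. Under ERCC totals 254 retained introns were lower and 16 higher, against 3019 and 45 of the protein-coding transcripts.

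Lower genes were mostly shorter than kept genes, but not every class with lower genes was of short genes. The median coding length was 441 bases for cytoplasmic ribosomal proteins and 409.5 for nuclear respiratory subunits, against 1317 for all tested nuclear protein-coding genes, but 2811 for the subcortical maternal complex and oocyte Nlrp genes. The last value is the median of all 19 members, of which 3 fell under TMM, 1 of them among the 11 Nlrp genes. It does not give the length of the members that fell. The oocyte Fbxw cluster had a median coding length of 1398 bases, yet its median transcript was 1504 bases and its median 3′UTR 58.5 bases long. Length and the other gene features were looked at after the calls were known. They were 8 in number: the length of the most counted transcript, of its coding part and of its 3′UTR, GC content, mean CPM, a polyadenylation-element motif, the AATAAA signal and a pyrimidine tract at the transcription start. The search for the tract was void, because the RefSeq promoter table held 65 of the 86 cytoplasmic ribosomal protein genes (75.6%). Among 11261 tested nuclear protein-coding genes the median transcript was 2803 bases long. It was 1370 bases for the 677 lower genes, 3046.5 for the 6620 kept under TMM and 3344 for the 1593 kept on both scales. Of the lengths, the 3′UTR showed the widest contrast, with a median of 272 bases in lower genes, 992 in all and 1335 in genes kept on both scales. The median CPM also differed, at 12.84 in lower genes, 16.54 in all and 66.96 in genes kept on both scales. With the genes in 4 equal bins of transcript length, 16% of the shortest bin fell under TMM and 43.8% were kept, and in the longest bin 1.21% fell and 66.9% were kept. Ribosomal and respiratory genes did not make up this difference alone. Without them 13.8% of the shortest bin fell, and lower genes outside those classes still had a median of 1483 bases. Across these genes, which are not independent replicates, the log2 fold change had a Spearman correlation of 0.34 with transcript length, 0.31 with 3′UTR length, 0.18 with mean CPM and −0.11 with GC content. Length also bears on how reads are counted, and its part in the result was not tested.

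**Figure D3:**
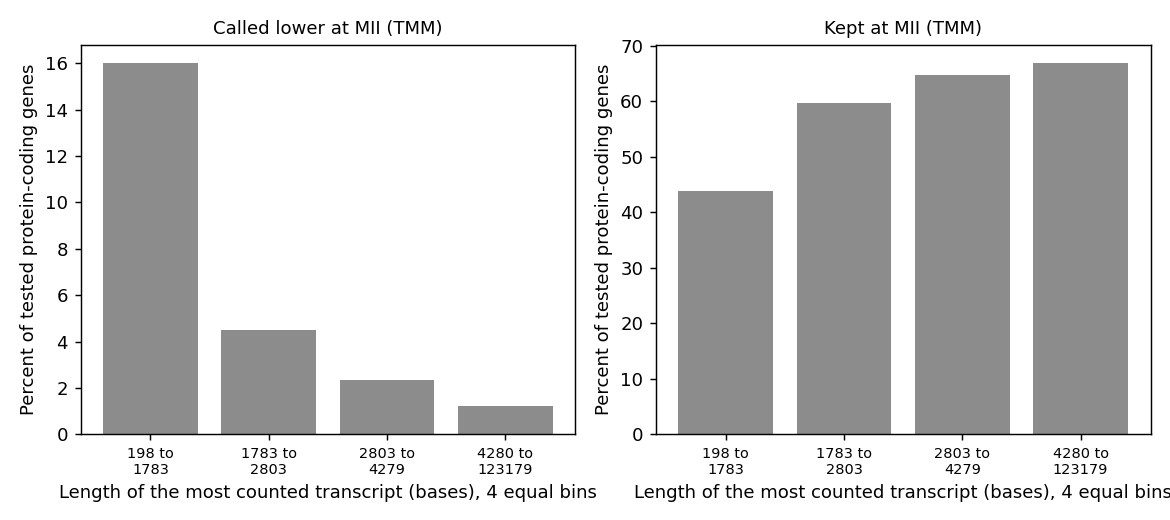
Share of tested nuclear protein-coding genes called lower (left, y axis in percent) or kept (right, y axis in percent) under TMM, in 4 equal bins of the length of the most counted transcript (x axis, bases), 1 bar per bin. Lower genes go from 16% in the shortest to 1.21% in the longest bin, and kept genes from 43.8% to 66.9%.

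Cytoplasmic polyadenylation in oocytes acts through short U-rich elements near the end of the 3′UTR. The DNA letters TTTTAT and TTTTAAT, read on the strand of the transcript, were searched in the last 100 bases of each 3′UTR, or in all of a shorter one. They occurred in 19.8% of the 10533 genes with an annotated 3′UTR, in 57 of 635 lower genes (8.98%), in 21.9% of the genes kept under TMM and in 30.1% of those kept on both scales. A shorter 3′UTR offers fewer bases to search, so the shares were also taken, after they had been seen in all genes, over the 10069 genes whose 3′UTR holds at least 100 bases. The motif occurred in 20.3% of these, in 51 of 495 lower genes (10.3%), in 22% of the genes kept under TMM and in 30.1% of those kept on both scales. Among these genes in the bins of transcript length, 15.2% of the shortest bin without and 6.43% with a motif fell, in the next 4.66% and 2.09%, in the third 2.4% and 1.32%, and in the longest 1.14% and 1.33%. The difference was not seen in the longest bin. Both motifs hold only A and T, and the groups differed in base composition. The median GC content of the transcript was 51.6% in lower genes, 49.3% in all tested nuclear protein-coding genes and 46.3% in those kept on both scales. The part of base composition and of level in the motif shares was not tested. The AATAAA signal in the last 40 bases occurred in 58.1% of lower genes, 61.8% of all and 63% of the genes kept under TMM. It occurred in 54.8% of genes lower in all 4 fits and in 67.8% of those kept on both scales.

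The windows that follow show the motif in genes of the cytostatic and RNA-binding classes that were kept on both scales and have it. They are Wee2, Cks2 and Cks1b, the last 2 being small partners of Cdk1, and Tent4a, a poly(A) polymerase. Each window is 30 bases of the annotated 3′UTR in the GRCm38.p6 assembly, written 5′ to 3′ on the strand of the transcript, with the motif in capitals. A match of letters does not show that a protein binds there.
Wee2, chr6:40466784-40466813, plus strand: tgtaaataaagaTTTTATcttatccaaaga
Cks2, chr13:51650598-51650627, plus strand: tataaatgcctgTTTTATtttacctgtttt
Cks1b, chr3:89415472-89415501, minus strand: ttgattaaaggaagttTTTTATaatcttaa
Tent4a, chr13:69497994-69498023, minus strand: aaattaacatatTTTTATgtaaagtttttc
The log2 fold changes of Wee2, Cks2, Cks1b and Tent4a were 0.43, 0.27, 0.43 and 0.55 under TMM and −0.30, −0.46, −0.30 and −0.21 under ERCC totals.

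Oocyte markers were abundant in every library. The 20 oocyte markers were all tested and summed to 17536.4 to 25314.1 CPM at GV and 13821.8 to 15938.3 at MII, with Gdf9 the most abundant at 14.8% of the sum. Of 24 cumulus and granulosa markers 6 were tested, with sums of 218.6 to 267.7 CPM at GV and 266.2 to 333.5 at MII, and Serpine2, a protease inhibitor, made up 76.3% of them. Serpine2 had a median of 177 CPM at GV and 264 at MII and was kept under TMM at 0.56. Of the 6 tested markers 1 was lower under TMM and in all 4 fits, and none was higher. A sum without Serpine2 was not taken, so the higher sum at MII does not describe the list. Of 13 oviduct markers 2 were tested, at sums of 10.48 to 14.1 CPM at GV and 4.25 to 11.9 at MII, led by Cldn4 with 56.9%, and Wfdc2 was at 0 in all oocytes. None of 12 theca and stroma markers passed the filter, and their sums stayed between 0.0882 and 5.46 CPM, with Sparc the most abundant at 19.4%. Of 16 blood and immune markers 3 were tested, at 38.0 to 63.7 CPM at GV and 38.3 to 57.2 at MII, with Ms4a1 holding 91.3% and S100a9 at 0 in all oocytes. Without Ms4a1 the other 15 blood and immune markers summed to 0.629 to 3.33 CPM at GV, 2.56 to 3.36 in MII oocytes 2 to 6 and 22.9 in MII oocyte 1, which was the highest oocyte for 11 of them. MII oocyte 1 held 5.15 CPM of Hba-a1 and 4.63 of Hbb-bs, which encode hemoglobin chains, against at most 0.173 and 0.213 in any other oocyte. The part of other cells in the results was not tested.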

How the data were processed

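Trim Galore 0.6.4, STAR 2.7.6a, HTSeq 0.12.4 and RSEM 1.3.1 are named in the submitters' processing notes, with the mm10 genome, and the paper's methods name GENCODE VM20. The authors deposited expected counts from RSEM for genes and for transcripts. The authors also deposited HTSeq counts for genes, and none of the tables was normalized. Whether the libraries or the counting used strand is not given in the sources used here.

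Expected counts were rounded. Names, gene types and 3′UTRs came from GENCODE M21 (GRCm38.p6), which held 54723 of 54844 gene identifiers and 138789 of 138927 transcript identifiers; 92 of each table's features are ERCC sequences and stayed out of the tests. Genes with at least 10 counts in at least 6 of the 12 oocytes were tested with edgeR 4.0.16 (limma 3.58.1, R 4.3.3) by the quasi-likelihood test, with TMM factors or with ERCC totals as library sizes. Calls required p under 0.05 after Benjamini-Hochberg adjustment and more than a 2-fold change, and kept genes a 95% interval within ±1 on the log2 scale. The fitting code was tested on simulated data. Single values per oocyte were compared by exact permutation. Python 3.11.15 with numpy 2.4.6, pandas 2.3.3 and matplotlib 3.10.9 made the summaries and plots.

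Members of the classes and marker lists were chosen with earlier results of these data known. Names caught only by a pattern (Rps6kl1, Eif2ak, Eef1akmt, Eef2kmt and Eef2k genes) were removed. Divisions of a class into subunits or complexes, gene features, sequence windows and the set of 49 genes were chosen after values were seen. Genes were named by rule: the 10 lower genes with the smallest adjusted p called in all 4 fits (TMM, ERCC totals, without MII oocyte 1, HTSeq) and without overlap, skipping 1 unnamed gene (the same rule gave 0 higher genes); in each class, the member with the most counts and its strongest lower and higher call; and the most counted marker. An item selected by the rule is not reported here. Other named genes were chosen after their values were seen. Alternatives were DESeq2 1.42.0 and its size factors, no filter, a filter over all 12 oocytes, filterByExpr, HTSeq counts, no fold threshold, removal of ribosomal RNA and mitochondrial genes, the replicate number as a block, and each oocyte left out in turn.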

Additional observations from a re-analysis of the deposited data

Results flagged for a closer look

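Sums and counts per oocyte were screened for an oocyte far from the other 5 of its stage, by Dixon's ratio of its gap to the range. Of 116 groups of 6 oocytes 4 held such an oocyte, and chance gives about 1 in 20 groups. MII oocyte 1 accounted for 3 of the 4. It had 29518 genes with at least 1 count, against 19273 to 22244 in the other MII oocytes, and 28048 against 18459 to 20617 after all libraries were thinned to 7509812 counts. Its sensory receptor genes summed to 10775.1 CPM, against 5954.8 to 7083.4 in the others. GV oocyte 2 held 23424.7 CPM of the subcortical maternal complex and oocyte Nlrp genes, against 15091.7 to 17355.4 in the other GV oocytes. Causes were not tested.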

How the results depend on the processing

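The counts of lower and kept genes depended most on the scaling among these alternatives. ERCC totals gave 3811 lower, 140 higher and 2396 kept genes with a median log2 fold change of −0.715, and without MII oocyte 1 3719, 38, 2043 and −0.732. HTSeq counts with ERCC totals, added after the data were seen, gave 3660, 25, 2490 and −0.728. For transcripts ERCC totals gave 4218 lower and 100 higher. Lower calls under TMM moved beyond 1.5 times only with the fold threshold dropped (1497), among the alternatives that kept TMM. Higher calls were 895 without a filter, where the median was 0.268, 118 when all 12 oocytes had to reach 10 counts, 103 on HTSeq counts, 91 on HTSeq counts without MII oocyte 1 and 1185 without the fold threshold. Leaving out each oocyte in turn gave 149 to 295 higher calls and medians of −0.007 to 0.023 under TMM. Under ERCC totals it gave 38 to 147 higher calls and medians of −0.840 to −0.607. The lowest counts were without MII oocyte 1, and the fits without GV oocyte 5 called 184 under TMM and 83 under ERCC totals.

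With the replicate number as a block, 675 genes were lower, 229 higher and 6269 kept, with a median of 0.012. The numbers do not pair the oocytes: same-numbered GV and MII oocytes had correlations of −0.320 to 0.344 in their deviations, and GV oocyte 1 alone correlated best with its own number.

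For 80 named genes the alternatives gave 1904 values, of which 1840 kept direction and side of the threshold, 31 gained a call, 29 lost it and 4 reversed. Tut7 reversed on HTSeq counts, to 0.156, and to 0.140 without MII oocyte 1. Sympk turned to −0.115 under ERCC totals without MII oocyte 1 and to −0.312 on HTSeq counts with ERCC totals. Timm22, lower on RSEM counts at −4.80, was not called on HTSeq counts at −0.90. The causes were not tested.

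With 6 oocytes per stage and a median standard error of 0.255, 4896 genes were neither called nor kept. Of protein-coding genes in the lowest of 4 bins of mean CPM 18.2% were kept, against 82.7% in the highest. Values describe polyadenylated RNA captured from 12 oocytes of unstated animals and hold for no other batch. The ERCC scale assumes an equal amount of spike-in, which is not stated, in every oocyte; spike-in totals averaged 93002.7 counts at GV and 133963.2 at MII.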

Other observations

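Ribosomal RNA genes and their repeats, which an oligo-dT library should hold little of, took 15.5% to 28.3% of the mouse counts in GV oocytes (median 24.5%) and 25.4% to 38.4% in MII oocytes (median 31.0%). The stages overlapped, and the ratio of the means was 1.38, with an exact permutation p of 0.0195 and an adjusted p of 0.0455. Counting them in, the ratio of mouse to spike-in counts between the stages was 0.713 in place of 0.635. The share of spike-ins was 0.591% to 1.47% at GV and 0.979% to 1.40% at MII (exact permutation p = 0.0693, adjusted 0.121). The number of genes detected did not pass the test (exact permutation p = 0.688, adjusted 0.803), nor after thinning (exact permutation p = 0.918). The spread of the genes was alike at the stages, with a median SD of log2 CPM of 0.42 at GV and 0.41 at MII.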
